A study of Homo sapiens with 6 samples.

Results

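Genes of alternative splicing were followed in the bulk RNA sequencing of undifferentiated H7 human embryonic stem cells (hESCs) with and without S6K1. They were chosen by symbol: the SR proteins (SRSF), the TRA2 proteins, the SR protein kinases SRPK1, SRPK3 and CLK1 to CLK4, the hnRNPs, and the PTBP, ESRP, RBFOX, MBNL and CELF families with QKI. This gave 58 of the 61155 symbols in the count table, and 56 of them passed the filter on low counts, which left 19521 genes in all. The rule used symbols and no measured level, but it was written with earlier results of these data known.

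H7 is an established hESC line, here grown without feeder cells on Matrigel in TeSR-E8 medium. WT cells in 3 libraries were compared with S6K1-depleted cells in 3 libraries, in which Cas9 and guides against 2 exons of RPS6KB1, the gene of the kinase S6K1, had been used. The study describes a knockout and names clone #1 for this comparison, so all S6K1-/- libraries come from 1 clone, and an effect of the genotype and a difference of that clone cannot be told apart. The labels of these samples give the genotype as S6K1 knockdown and the time as week 5, next to a treatment of undifferentiation, and they name another Cas9 plasmid than the methods. Whether the libraries of a group came from separate cultures is not stated, so the p-values measure the spread between libraries, which may be technical. Library totals ran from 21896698 to 24473013 counts. RPS6KB1 itself fell from 831, 791 and 777 counts in WT to 464, 464 and 438 in S6K1-/- hESCs (log2 fold change -0.75, adjusted p = 2.52e-07 by Benjamini-Hochberg over the quasi-likelihood test of edgeR). All 8 pluripotent cell markers and all 6 epithelial markers were present, with summed levels of 5529 to 5686 CPM (counts scaled to the size of the library) in WT and 5153 to 5214 CPM in S6K1-/- hESCs for the former, and 2352 to 2448 against 2225 to 2256 CPM for the latter. At an adjusted p under 0.05, DNMT3B, TDGF1, EPCAM and CLDN7 were lower (log2 fold change from -0.43 to -0.15, edgeR) and ZFP42 was higher (0.17), and the other 9, POU5F1, SOX2 and NANOG among them, did not pass. Of all genes, 8.31% were lower and 5.47% higher.

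SR proteins bind exonic enhancers through RNA recognition motifs and recruit the spliceosome through a domain rich in arginine and serine, which SRPK and CLK kinases phosphorylate. The hnRNPs package nascent RNA and often silence exons, and tissue-restricted families such as PTBP, ESRP, RBFOX, MBNL and CELF switch exons between cell types. Many of these genes limit their own mRNA by including or skipping an exon that sends the transcript to nonsense-mediated decay (NMD). The classic case is PTBP2, the neuronal paralog of PTBP1: in cells rich in PTBP1 a short exon of PTBP2 is skipped and the message is degraded. In the GENCODE annotation this exon has 34 bases, is present in 9 of 9 coding transcripts of PTBP2, and is missing from 3 of its 4 transcripts marked for NMD. It is printed because the gene with the smallest adjusted p of all 58 carries it, from 60 bases before to 10 bases after it (GRCh38, plus strand, chr1:96806359-96806462), with the exon in capitals.
PTBP2 exon: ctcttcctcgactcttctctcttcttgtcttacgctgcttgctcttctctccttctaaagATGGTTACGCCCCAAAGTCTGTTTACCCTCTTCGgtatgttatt
Of the 60 intronic bases before the exon, 49 (81.7%) are pyrimidines, the kind of tract to which PTBP proteins bind. The deposited values are counts per gene, so inclusion and skipping of the exon cannot be separated in them.

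Differences of these genes between WT and S6K1-/- hESCs are given beside the shares over all genes tested. None of the 56 genes tested passed the threshold of the study, an adjusted p under 0.001, which 3.96% of all genes tested did. At an unadjusted p under 0.05 there were 11 of 56, where 26.4% of all genes were, and with DESeq2's Wald test in place of edgeR there was again none past 0.001. At an adjusted p under 0.05, PTBP2, TRA2A, SRSF2, SRSF7 and HNRNPA3 were higher in S6K1-/- hESCs, 5 of 56 where 5.47% of all genes were, and CELF4 and RBFOX3 were lower, 2 of 56 where 8.31% of all genes were. No test was made of the group as such. The median log2 fold change was 0.046 over the 56 genes and -0.0024 over all genes tested, and 41 of 56 (73.2%) lay above 0, against 49.4% of all genes. WT and S6K1-/- libraries were fully separate for 23 of 56 genes, where 30.7% of all genes were. Of the 23, 20 were higher and 3 lower in S6K1-/-, where 14.0% of all genes were separate and higher and 16.7% separate and lower. For 43 of the 56 genes the 95% interval of the log2 fold change lay within 0.25 of zero on either side, and for 51 within 0.5. Of all genes, 39.4% and 65.9% had such intervals. The intervals that reached beyond 0.5 were those of CELF3, MBNL2, CELF4, RBFOX2 and SRPK3. Relative to library sizes scaled by TMM, the 58 genes together took from 1.68% to 1.71% in the WT libraries and from 1.75% to 1.77% in the S6K1-/- libraries. The scaling factors ran from 1.005 to 1.011 in WT and from 0.989 to 0.995 in S6K1-/-. They lower the WT values relative to the S6K1-/- values, so these are not plain shares of the counts.

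**Figure D1:**
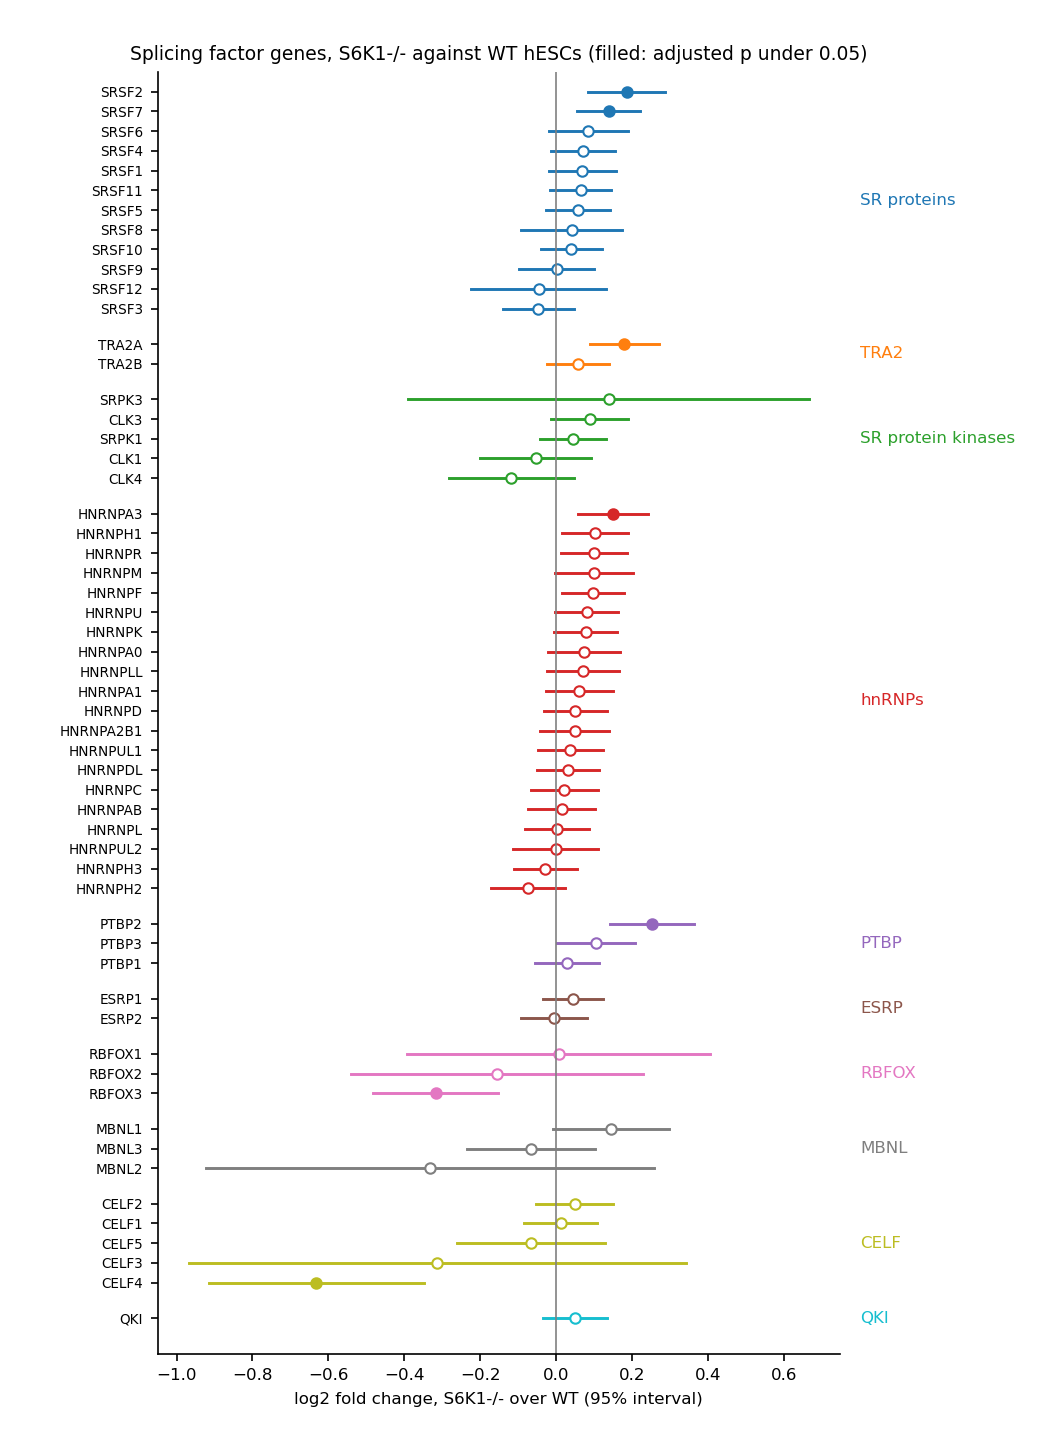
Log2 fold change of S6K1-/- over WT hESCs for each of the 56 splicing factor genes tested, by class, with bars for the 95% interval and filled points for an adjusted p under 0.05. Most points lie between 0 and 0.15, PTBP2 stands highest at 0.25 and CELF4 lowest at -0.63.

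Among the 12 SR proteins, 2 were higher at an adjusted p under 0.05, none was lower, and 10 lay above 0, with a median log2 fold change of 0.060. Of all genes, 5.47% were higher, 8.31% were lower and 49.4% lay above 0. SRSF2, which promotes exon inclusion and stays in the nucleus, had 261, 279.8 and 252 CPM in WT replicates 1 to 3 and 294, 316 and 291 CPM in S6K1-/- replicates 1 to 3. Every S6K1-/- library was above every WT library, in a 1.14-fold difference (95% interval 1.06 to 1.22; log2 fold change 0.19, standard error 0.048, adjusted p = 0.0162, edgeR). The call was lost without WT replicate 3 (adjusted p = 0.0752) and without S6K1-/- replicate 2 (adjusted p = 0.0796, edgeR). SRSF2 lies on chromosome 17 from 76734115 to 76737333 on the minus strand, and 27.7% of its exonic bases are shared with MFSD11 on the opposite strand. SRSF7, which shuttles to the cytoplasm and helps export spliced mRNA, had 226, 239.6 and 230.3 CPM in WT and 255, 252 and 258 CPM in S6K1-/- hESCs. These libraries did not overlap either, and the log2 fold change was 0.14 (standard error 0.039, adjusted p = 0.0280, edgeR). Of the 7 calls, it held in the fewest alternative fits, 6 of 11. When 1 library was left out, SRSF7 passed 0.05 only without WT replicate 2 (adjusted p = 0.0101, edgeR) and reached 0.0512 to 0.0934 without any of the other 5 libraries. SRSF4 had a log2 fold change of 0.070 (95% interval -0.013 to 0.15; adjusted p = 0.277, edgeR) with groups that did not overlap. SRSF1, the founding member, had 0.068 (adjusted p = 0.326), and SRSF3 and SRSF12 were the 2 members below 0, at -0.047 each, all 3 named here after their values were seen.

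**Figure D2:**
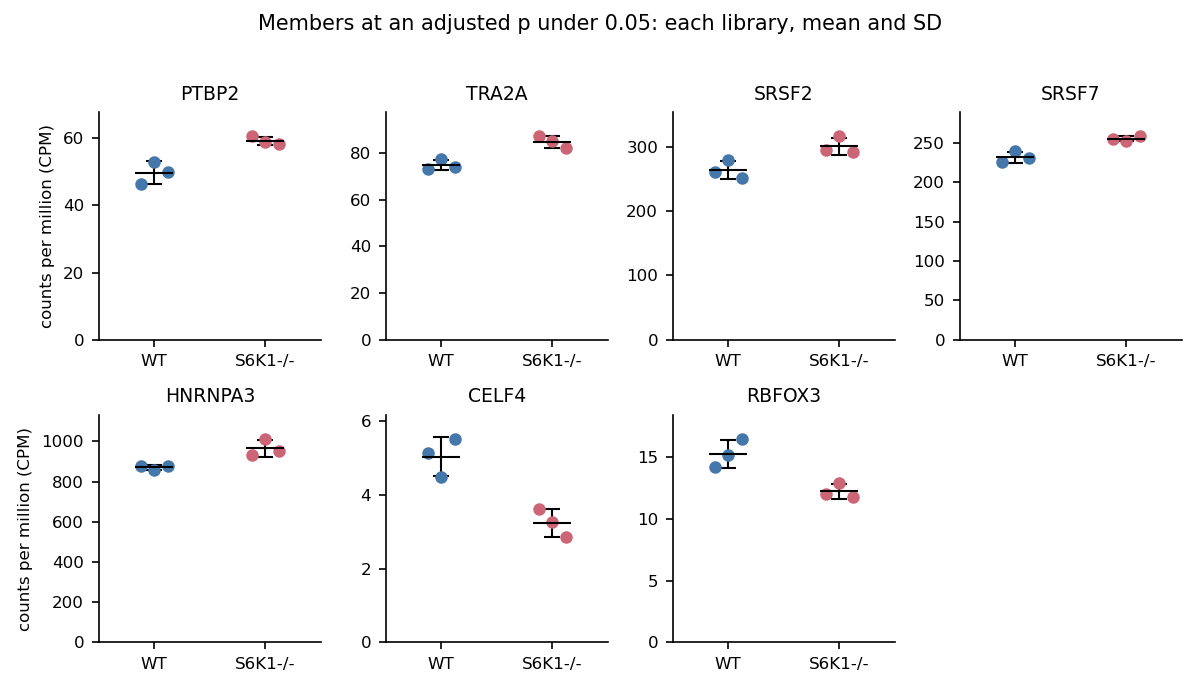
CPM of the 7 genes at an adjusted p under 0.05, with a point for each of 3 WT and 3 S6K1-/- libraries, the mean as a line and the SD as bars, on axes that start at 0. In every panel the groups do not overlap, and the differences are 1.10-fold to 1.19-fold for the 5 higher genes.

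TRA2A and TRA2B are SR-like proteins that bind purine-rich enhancers. Both had groups that did not overlap and were higher in S6K1-/-, where 14.0% of all genes were separate and higher. TRA2A (chromosome 7, from 23504780 to 23532041, minus strand) had 73.1, 77.3 and 74.0 CPM in WT and 87.0, 85.0 and 81.9 CPM in S6K1-/- hESCs. This amounted to 1.13-fold (95% interval 1.06 to 1.21; log2 fold change 0.18, standard error 0.042, adjusted p = 0.0102, edgeR), and the call was lost without S6K1-/- replicate 1 (adjusted p = 0.0637, edgeR). TRA2B, at 248.5 ± 5.29 CPM in WT and 258.5 ± 3.15 CPM in S6K1-/- (SD, n = 3), had a log2 fold change of 0.057 with a 95% interval from -0.024 to 0.14.

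Of the 5 kinases of SR proteins tested, none was called at an adjusted p under 0.05, where 5.47% of all genes were higher and 8.31% lower. SRPK1, the main cytoplasmic kinase, had 198 ± 6.46 CPM in WT and 204 ± 5.75 CPM in S6K1-/- hESCs (SD, n = 3), a log2 fold change of 0.044 with a 95% interval from -0.043 to 0.13. The nuclear kinases CLK3 and CLK4 had log2 fold changes of 0.088 (adjusted p = 0.261) and -0.12 (adjusted p = 0.363, edgeR), and their intervals of -0.013 to 0.19 and -0.28 to 0.046 do not show that they were alike in both groups. CLK2 was read at 2, 1 and 1 counts in WT and 1, 1 and 0 counts in S6K1-/-, too few for a test. The whole CLK2 gene, 15624 bases, has a copy of 100% identity on an alternate contig of chromosome 1, and its neighbours SCAMP3, HCN3 and PKLR also had from 0 to 1 counts per library. MTX1, FDPS and RUSC1 on either side had from 382 to 4448 counts. Which contigs the reference of the authors held is not stated, and the part of the copy in these low counts was not tested.

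hnRNPs were the most abundant class. Of the 20 genes, 1 was higher at an adjusted p under 0.05 (5.47% of all genes), none was lower (8.31%), 17 lay above 0 (49.4%) with a median log2 fold change of 0.055, and for all 20 the 95% interval stayed within 0.25 (39.4%). Summed over the class, WT libraries held 12422, 12592 and 12442 CPM and S6K1-/- libraries 12852, 13108 and 13106 CPM, so that the groups did not overlap. HNRNPA3, a nuclear and RNA granule protein close to HNRNPA2B1, had 876, 857 and 877 CPM in WT and 931, 1011 and 952 CPM in S6K1-/- hESCs. S6K1-/- replicate 2 was the highest of the 6 libraries, and the log2 fold change was 0.15 (standard error 0.043, adjusted p = 0.0311, edgeR). The adjusted p was 0.131 without S6K1-/- replicate 2, 0.0543, 0.0615 and 0.0709 without WT replicates 1, 2 and 3, and under 0.05 without either of the other 2 libraries. HNRNPA3 lies on chromosome 2 from 177212694 to 177223959 on the plus strand, and 53.7% of its exonic bases overlap NFE2L2 on the opposite strand. Its 16 named pseudogenes drew from 2.83% to 3.50% of the reads given to gene and pseudogenes together. HNRNPH1 and HNRNPF, which bind runs of guanines, had log2 fold changes of 0.10 (adjusted p = 0.120) and 0.097 (adjusted p = 0.113, edgeR), with groups that did not overlap. HNRNPH1 passed 0.05 with DESeq2's Wald test (adjusted p = 0.0436), and HNRNPM passed it without WT replicate 2. HNRNPA1, an antagonist of SRSF1 at many exons, held 59137, 59957 and 57325 counts in WT and 59050, 60952 and 56397 in S6K1-/- hESCs, the most of any of the 58 genes. Its log2 fold change was 0.061 with a 95% interval from -0.028 to 0.15. Its 75 named pseudogenes took a further 8.08% to 8.70% of the reads of the family, and how many of these reads came from HNRNPA1 was not tested.

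The promoters of SRSF7 and HNRNPA3, 2 genes that were higher together, are shown because their RefSeq start is also the canonical GENCODE start. Both are printed over the 250 bases before the start (RefSeq, GRCh38.p14, in the direction of transcription), SRSF7 from the minus strand of chr2:38751362-38751611 and HNRNPA3 from the plus strand of chr2:177212544-177212793. Capitals mark 4 motifs on either strand: the CCAAT motif, the letters of a TATA box (TATAAA), the core of a GC box (GGGCGG) and an E-box (CACGTG), which reads the same on both strands.
SRSF7 promoter: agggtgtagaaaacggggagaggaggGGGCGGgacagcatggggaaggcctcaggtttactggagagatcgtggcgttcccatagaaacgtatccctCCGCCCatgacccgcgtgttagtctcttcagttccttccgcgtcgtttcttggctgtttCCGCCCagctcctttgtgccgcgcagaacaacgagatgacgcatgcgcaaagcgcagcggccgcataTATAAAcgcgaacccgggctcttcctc
HNRNPA3 promoter: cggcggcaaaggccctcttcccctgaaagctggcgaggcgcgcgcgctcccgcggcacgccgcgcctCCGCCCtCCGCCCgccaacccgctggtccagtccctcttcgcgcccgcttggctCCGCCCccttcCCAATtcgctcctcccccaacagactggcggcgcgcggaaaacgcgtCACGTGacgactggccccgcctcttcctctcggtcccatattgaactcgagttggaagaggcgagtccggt
Both hold the GC box core, which 42.6% of 35116 RefSeq windows of this length hold. SRSF7 alone of the pair has the TATA box letters, found in 10.7% of windows. HNRNPA3 alone has the CCAAT motif (32.0% of windows) and the E-box (6.34%). Their GC content was 58.8% and 70.4%, and they hold 23 and 34 CpG dinucleotides, where the median window has 58.0% and 11. The RefSeq starts of PTBP2, RBFOX3 and CELF4 lie 854, 1890 and 80006 bases from the canonical start, so their windows are not printed. The promoter table used here has no entry for TRA2A and SRSF2.

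PTBP1, PTBP2 and PTBP3 repress exons through pyrimidine tracts, and PTBP1 is the form of dividing cells. PTBP2 had 46.3, 53.0 and 49.8 CPM in WT and 60.5, 58.9 and 58.3 CPM in S6K1-/- hESCs. The highest WT library stayed below the lowest S6K1-/- library. The mean went from 49.7 ± 3.36 to 59.2 ± 1.15 CPM (SD, n = 3), a 1.19-fold difference with a 95% interval from 1.10 to 1.29. This was the smallest adjusted p among the 56 genes (log2 fold change 0.25, standard error 0.051, adjusted p = 0.00366, edgeR), and it stayed under 0.05 in all 6 fits that left out 1 library, where the log2 fold change ran from 0.21 to 0.30. PTBP2 lies on chromosome 1 from 96721665 to 96823738 on the plus strand and shares no exonic bases with another gene. PTBP1, at 535 ± 6.85 CPM in WT and 545 ± 14.8 CPM in S6K1-/- (SD, n = 3), had a log2 fold change of 0.028 (95% interval -0.056 to 0.11). PTBP3 had 0.10 (adjusted p = 0.186, edgeR), and 0.17 without WT replicate 3, when its adjusted p was 0.0255.

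ESRP1 and ESRP2, the epithelial regulators that set FGFR2 and CD44 isoforms in pluripotent cells and epithelia, gave no call at an adjusted p under 0.05. Of all genes, 5.47% were higher and 8.31% lower. ESRP1 had 211 ± 3.30 CPM in WT and 217.5 ± 0.917 CPM in S6K1-/- hESCs (SD, n = 3), a log2 fold change of 0.043 with a 95% interval from -0.036 to 0.12. For ESRP2 the value was -0.0063 with an interval from -0.093 to 0.080, and its sign turned with DESeq2's size factors. QKI, a STAR protein of glial and mesenchymal splicing, had 0.049 with an interval from -0.036 to 0.13.

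RBFOX proteins recognise UGCAUG around exons of nerve and muscle. RBFOX3, whose protein is the neuronal antigen NeuN, had 14.2, 15.1 and 16.4 CPM in WT and 12.01, 12.9 and 11.8 CPM in S6K1-/- hESCs. The groups did not overlap, and the level was 0.803-fold that of WT (95% interval 0.716 to 0.900; log2 fold change -0.32, standard error 0.077, adjusted p = 0.0119, edgeR). The adjusted p was 0.0759 without WT replicate 3, 0.0625 without S6K1-/- replicate 3 and 0.0663 with DESeq2's Wald test. RBFOX2, the form of non-neuronal cells, was the member that varied most between libraries of 1 group. It had 1005, 782 and 445 counts in WT replicates 1, 2 and 3 and 565, 697 and 649 in the S6K1-/- replicates, a coefficient of variation of 36.1% in WT and 11.3% in S6K1-/-. Its log2 fold change of -0.16 (adjusted p = 0.637, edgeR) became 0.12 without WT replicate 1 and -0.40 with an adjusted p of 0.0311 without WT replicate 3. An alternate contig of chromosome 22 holds 70.3% of the RBFOX2 gene at 99.998% identity. RBFOX2 and CLK2 were the 2 genes of the 58 with such a copy of at least 1000 bases and 98% identity, and its part in the spread of RBFOX2 was not tested. RBFOX1 was read at 31 to 40 counts per library, and its interval from -0.39 to 0.40 leaves changes of that size undetectable at this depth.

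MBNL proteins drive adult patterns of splicing. None of the 3 was called at an adjusted p under 0.05, where 5.47% of all genes were higher and 8.31% lower. MBNL1 had 17.7 ± 0.454 CPM in WT and 19.5 ± 1.68 CPM in S6K1-/- hESCs (SD, n = 3; log2 fold change 0.14, adjusted p = 0.222, edgeR). MBNL3 had 11.7 ± 0.693 and 11.2 ± 0.557 CPM, a log2 fold change of -0.067. MBNL2 had 19, 17 and 14 counts in WT and 14, 12 and 12 in S6K1-/- hESCs, with a 95% interval of the log2 fold change from -0.92 to 0.26. In CPM its groups did not overlap, as for 30.7% of all genes.

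CELF proteins bind GU-rich elements and oppose MBNL at many exons, and CELF3 to CELF6 are known mainly from brain. CELF4 (chromosome 18, from 37243040 to 37565827, minus strand) had 5.13, 4.47 and 5.51 CPM in WT and 3.62, 3.26 and 2.85 CPM in S6K1-/- hESCs, from 125, 110 and 128 counts against 85, 78 and 62. No S6K1-/- library reached the lowest WT library. This was the largest difference among the 56 genes, 0.646-fold of WT (95% interval 0.531 to 0.785; log2 fold change -0.63, standard error 0.132, adjusted p = 0.00444, edgeR). It stayed under an adjusted p of 0.05 in all 6 fits that left out 1 library, with log2 fold changes from -0.72 to -0.54. CELF1, the abundant form with 224 ± 11.7 CPM in WT and 225 ± 7.05 CPM in S6K1-/- (SD, n = 3), and CELF2, with 40.1 ± 0.547 and 41.45 ± 0.588 CPM, had intervals of -0.084 to 0.11 and -0.053 to 0.15. CELF3 was read at 10 to 23 counts per library, with an interval from -0.97 to 0.34. CELF6 had 0 counts in all 6 libraries, which allows up to 3 counts in a library, and 93.3% of its exonic bases are shared with other genes on the same strand.

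Levels between genes were compared as CPM per kb of annotated exon. HNRNPA1 stood first at 365 in WT and 381 in S6K1-/- hESCs, ahead of HNRNPAB at 226 and 228 and HNRNPC at 165 and 168. The first 8 places in WT all belonged to hnRNPs, and SRSF2 followed at 88.7 in WT and 101 in S6K1-/-. PTBP1 at 71.1, SRPK1 at 29.6, ESRP1 at 43.3 and QKI at 12.1 led their classes in WT. Of the genes called at an adjusted p under 0.05, PTBP2 at 2.47, RBFOX3 at 1.51 and CELF4 at 0.796 in WT stood low, and RBFOX1 at 0.093 was last. The order was nearly fixed between the groups: HNRNPA1, HNRNPAB and HNRNPC held the first 3 places in both, and CELF4 was in place 52 of 56 in both. HNRNPA3 moved from place 5 to 4 and PTBP2 from 44 to 43.

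**Figure D3:**
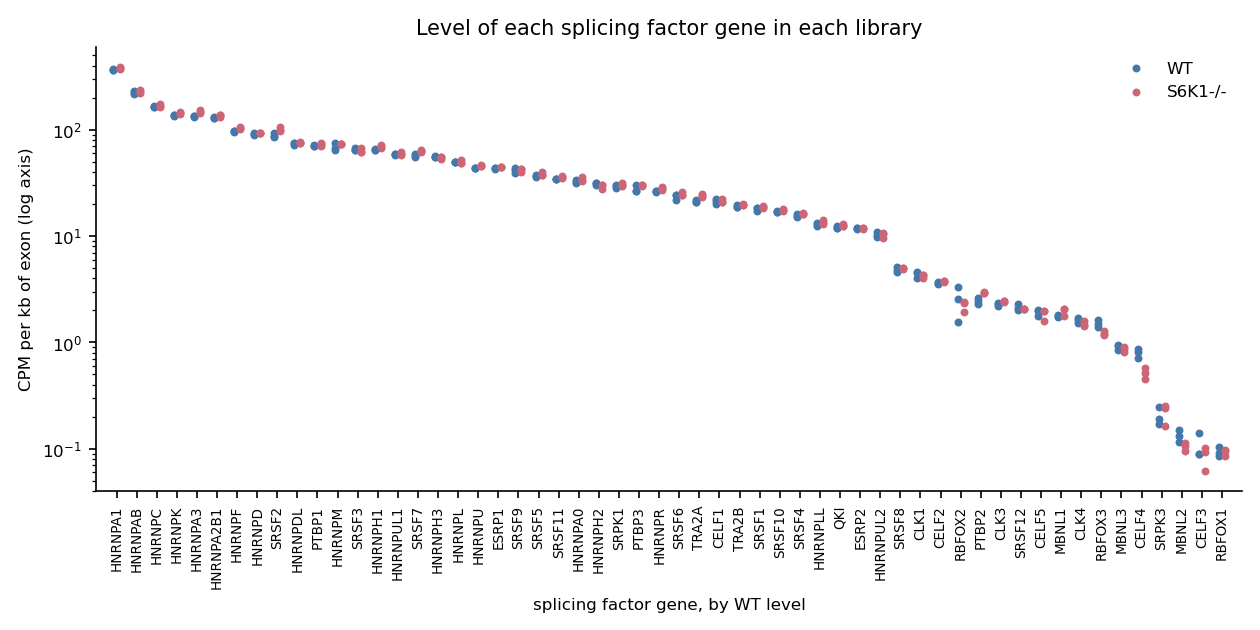
CPM per kb of exon, on a log axis, of the 56 genes tested in each WT and S6K1-/- library, ordered by the WT mean. The WT means span from 365 for HNRNPA1 to 0.093 for RBFOX1, and the widest column among genes above 1 CPM per kb is RBFOX2 in WT.

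Within families, shares of CPM per kb were taken in each library, a measure that scaling between libraries does not move. PTBP2 made up 2.31%, 2.60% and 2.41% of the PTBP family in WT and 2.81%, 2.78% and 2.81% in S6K1-/- hESCs, without overlap, while PTBP1 made up 70.2% ± 1.56 and 68.9% ± 0.664 (SD, n = 3), with overlap. TRA2A took 52.6%, 53.95% and 52.0% of the TRA2 pair in WT and 55.3%, 55.2% and 54.2% in S6K1-/-. HNRNPH1 took 42.8% ± 0.537 of its trio with HNRNPH2 and HNRNPH3 in WT and 45.3% ± 1.02 in S6K1-/- (SD, n = 3), again without overlap. CELF4 went from 2.88% ± 0.191 to 1.86% ± 0.215 of the CELF family. ESRP1 took 78.5% ± 0.269 and 79.1% ± 0.195 of the ESRP pair, a difference of 0.579 percentage points. RBFOX2 took 69.1%, 61.7% and 47.5% of its family in WT and 60.4%, 63.1% and 65.7% in S6K1-/- hESCs, so that no shift could be read. Groups also overlapped for the shares of PTBP3, RBFOX3, MBNL1, MBNL3, CLK1, CLK3, CELF1, CELF2, CELF3, CELF5 and HNRNPH2. They did not overlap for MBNL2, CLK4, RBFOX1, TRA2B, ESRP2 and HNRNPH3. CLK2 and CELF6 were too low to read.

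**Figure D4:**
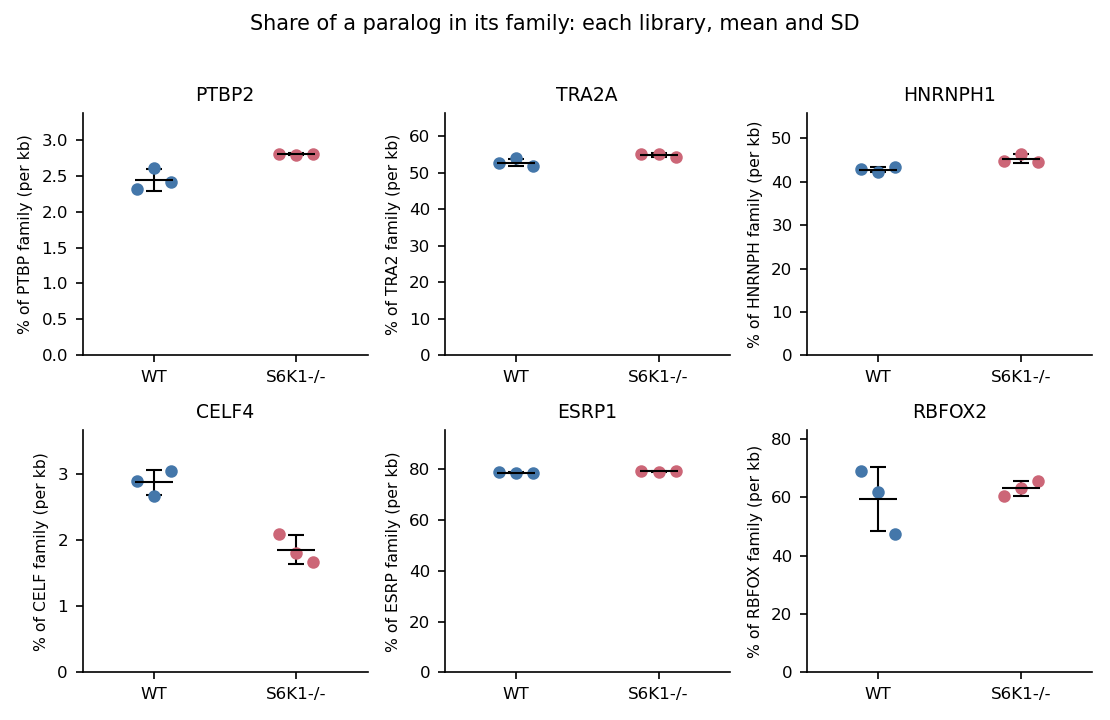
Share of PTBP2, TRA2A, HNRNPH1, CELF4, ESRP1 and RBFOX2 in the CPM per kb of their family, with a point for each library, the mean as a line and the SD as bars. In these panels the groups do not overlap except for RBFOX2, whose WT libraries run from 47.5% to 69.1%. Shares of the other paralogs, those of the MBNL and CLK families among them, are not shown, and for most of them the groups overlap.

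The 56 genes shared features that the choice by symbol had not used. Their median level was 203 CPM, against 12.4 CPM over all genes tested, and their median standard error 0.044, against 0.083. In the GENCODE annotation 42 of 56 (75%) have at least 1 transcript marked for NMD, against 45.6% of 13814 protein-coding genes tested, and their median number of transcripts was 14 against 8. HNRNPA2B1, SRSF7 and PTBP2 have 35, 6 and 4 such transcripts, while RBFOX3 has none. The part of the larger number of transcripts in that share was not tested, and the counts per gene do not show which transcripts were made.

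In 4 further groups of splicing genes, 12 of the 162 tested were higher at an adjusted p under 0.05 and 2 were lower, where 5.47% of all genes were higher and 8.31% lower. Of 59 core spliceosome genes, PRPF8 at 1 to 9 counts and LSM2 at 0 counts per library were not tested, although every cell uses them, and why the table lists them near 0 was not tested. Among the other 57, none passed an adjusted p of 0.001 and 2 were higher at 0.05, SNRPD3 of the Sm ring (log2 fold change 0.24, adjusted p = 0.0224, edgeR) and the branch point binding protein SF1 (0.14, adjusted p = 0.0461, edgeR). Their median log2 fold change was 0.0059. Among 30 SR-related proteins, 4 were higher at 0.05, against the 5.47% of all genes, and none was lower, against 8.31%, with a median of 0.073. THRAP3, an arginine and serine-rich protein of spliced mRNA, rose past 0.001, from 259, 259.5 and 270.2 CPM in WT to 325, 306 and 318 CPM in S6K1-/- hESCs (log2 fold change 0.27, standard error 0.040, adjusted p = 2.90e-04, edgeR). Leaving out WT replicate 1, S6K1-/- replicate 1 or S6K1-/- replicate 3 raised the adjusted p to 0.0019, 0.00344 and 0.00148 in turn. Its relative BCLAF1 (0.18, adjusted p = 0.00924) and SCAF11 (0.17, adjusted p = 0.0136, edgeR) were also higher at 0.05. Of 47 other splicing regulators, 5 were higher at 0.05 and 2 lower, beside the same shares of 5.47% and 8.31% of all genes. Among the higher were RBM47 (0.24, adjusted p = 0.00131), RBM6 (0.17, adjusted p = 0.0103) and PCBP4 (0.22, adjusted p = 0.0204, edgeR). Of 28 genes of the exon junction complex, NMD and mRNA export, only SMG5, an NMD factor, was higher at 0.05 (0.15, adjusted p = 0.0311, edgeR).

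The 2 lower regulators were neuronal. NOVA2, a regulator of exons in neurons and their progenitors, had 426, 382 and 377 counts in WT and 120, 132 and 106 in S6K1-/- hESCs, and its level fell (log2 fold change -1.67, standard error 0.087, adjusted p = 3.71e-09, edgeR). ELAVL3, a neuronal binder of U-rich RNA, had 46, 40 and 45 counts against 24, 21 and 27 (log2 fold change -0.80, adjusted p = 0.0148, edgeR), and its adjusted p was 0.141 with DESeq2's Wald test, 0.0601 without WT replicate 3, 0.0509 without S6K1-/- replicate 1 and 0.0663 without S6K1-/- replicate 2. ELAVL4, a relative of ELAVL3 that was too low for a test, had 12, 12 and 9 counts in WT and 0 in each S6K1-/- library. Several other genes known from neurons were not called lower. PTBP2 and MSI1 (log2 fold change 0.18, adjusted p = 0.0414, edgeR) were higher, and ELAVL2 (0.18), SRRM4 (0.26), NOVA1 (0.020), RBFOX1 (0.0059), CELF5 (-0.066) and CELF3 (-0.31) did not pass the test. These genes were set beside each other after their values were seen. Some neuronal markers were lower as well. Of the 10 markers listed, 7 could be tested, and STMN2 (log2 fold change -1.70, adjusted p = 1.41e-11), DCX (-0.54, adjusted p = 4.91e-04) and MAP2 (-0.85, adjusted p = 0.00735, edgeR) were lower, while SYT1 at 0.069, NEFL at 0.11, TUBB3 at 0.26 and SNAP25 at -0.85 did not pass the test. Of all genes, 8.31% were lower at an adjusted p under 0.05. The summed level of the neuronal markers ran from 201 to 212 CPM in WT and from 174 to 179.8 CPM in S6K1-/- hESCs, and NEUROD1 and NEUROG2 had at most 3 counts in every library. Within this sum STMN2 went from 49.9 to 15.3 CPM, DCX from 11.1 to 7.65 and MAP2 from 3.29 to 1.83. SYT1 went from 71.0 to 74.5 CPM and NEFL from 70.0 to 75.7. The markers of mesenchyme (567 to 587 CPM against 499 to 523 CPM, with DCN at 0 in every library), endoderm (8.27 to 10.8 against 4.36 to 5.45 CPM) and of amnion and trophoblast (5.60 to 7.16 against 3.68 to 4.01 CPM, with HAND1 at 0 in every library) were lower in sum too, as were the pluripotent cell and epithelial markers. In the mesenchyme list COL1A1, at 80.2 CPM in WT and 23.2 CPM in S6K1-/-, and PDGFRB, at 7.90 and 3.11 CPM, were lower, beside the same 8.31% of all genes, and THY1, at 488 and 479.95 CPM, ZEB1 and PDGFRA did not pass the test. In bulk RNA, fewer cells of a type and less RNA per cell cannot be told apart, and the part of such cells in the lower CELF4, RBFOX3, NOVA2 and ELAVL3 was not tested.

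**Figure D5:**
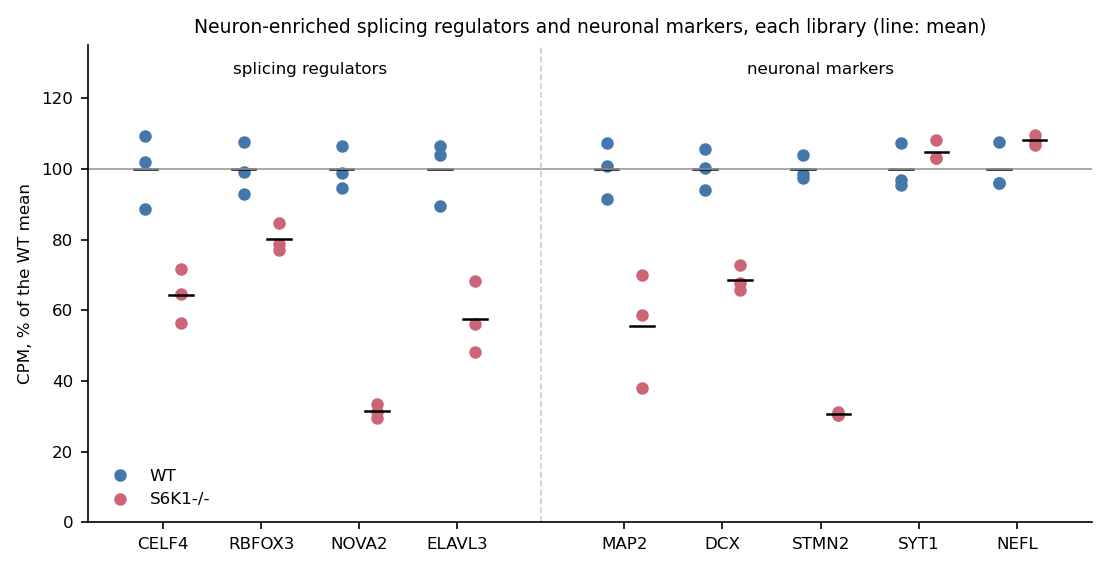
CPM as a percentage of the WT mean, in each library, of CELF4, RBFOX3, NOVA2 and ELAVL3 and of 5 neuronal markers, with a line for the mean. The regulators shown are those called lower at an adjusted p under 0.05. Other regulators known from neurons were higher (PTBP2 and MSI1) or not called and are not shown. The tested markers TUBB3 (log2 fold change 0.26) and SNAP25 (-0.85), which did not pass, are not shown either. The S6K1-/- libraries of CELF4 lie between 56.5% and 71.8% and those of RBFOX3 between 77.1% and 84.6%, and among the markers STMN2, DCX and MAP2 are lower while SYT1 and NEFL lie between 103.1% and 109.8%.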

How the data were processed

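Poly(A)-selected RNA of WT and S6K1-/- hESCs was sequenced in 3 stranded libraries of paired reads per group. According to the methods and the submitters' processing notes, the authors trimmed reads with Trim Galore 0.6.5, aligned them to GRCh38 with Bowtie2 2.4.5, which does not align across splice junctions, and counted them per gene with featureCounts. The deposited counts are whole numbers per gene symbol, without normalization. The annotation release, the contigs of the reference and the strand setting are not given in the sources used here, so genes that overlap or have copies are uncertain. The table of the authors' own DESeq2 1.37.4 comparison, with fold changes and p-values, was not used.

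Counts were filtered with filterByExpr, scaled by TMM and tested on genotype with edgeR 4.0.16 (R 4.3.3, limma 3.58.1), by the quasi-likelihood F test with Benjamini-Hochberg adjustment over 19521 genes. The common dispersion was 0.00216, and the standard error is the log2 fold change over the square root of F. The thresholds were 0.001, that of the study, and 0.05. Alternatives were DESeq2 1.42.0 (size factors and Wald test), no filter, a minimum of 10 counts per library, a block for the replicate number, and each library left out in turn. The steps were tested on simulated data with 200 changed genes. Of changes of 0.25 in log2 fold change, 13.5% were recovered at 0.001 and 31.5% at 0.05. Of changes of 0.5, 66% and 77% were recovered. The members, whose levels are higher than those of most genes, were not simulated apart. Libraries of a group differed by more than counting noise (chi-square of 2.11 to 4.14 per degree of freedom). Positions, exonic lengths and transcript types come from GENCODE 44, promoters from RefSeq, and copies on alternate contigs from minimap2 2.31. The members and lists were chosen with earlier results of these data known, so lists are described by counts and medians and were given no test. Named genes are RPS6KB1, in each class the 3 with the smallest p, the highest level per kb and any at 3 counts or fewer in every library of a group, and in each further list the 3 with the smallest p in each direction at an adjusted p under 0.05. Any other gene was named after its values were seen.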

Additional observations from a re-analysis of the deposited data

How the results depend on the processing

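The 7 genes at an adjusted p under 0.05 kept their direction in all 11 alternative fits. PTBP2 and CELF4 stayed under 0.05 in all 11, TRA2A in 10, SRSF2 in 9, RBFOX3 in 8, HNRNPA3 in 7 and SRSF7 in 6. Genes that passed 0.05 only in an alternative were HNRNPH1 (higher) with DESeq2's Wald test, HNRNPM (higher) without WT replicate 2, and PTBP3 (higher) and RBFOX2 (lower) without WT replicate 3. At the threshold of 0.001, 1 of the 56 genes was lower and 2 were higher without a filter on low counts (CELF4, PTBP2 and SRSF2), 0 to 1 were higher with 1 library left out (PTBP2 without WT replicate 2), and 1 was lower and 1 higher at a threshold of 0.01, 2 and 5 at 0.05. Over all genes, 496 were lower and 278 higher, which became 982 and 591 without a filter, 939 and 534 at 0.01, and 1622 and 1067 at 0.05, and with 1 library left out ran from 313 to 445 lower and from 175 to 235 higher. In the 4 further splicing lists, 1 lower and 1 higher gene became 2 and 2 with DESeq2's Wald test, 2 and 4 without a filter, 2 and 12 at 0.05, and 3 higher at 0.01, and the number higher ran from 0 to 2 with 1 library left out, being 0 without WT replicate 1 and when S6K1-/- replicate 1 or 3 was left out. Some genes that were not called changed sign. With 1 library left out, the log2 fold change of CELF1 ran from -0.026 to 0.054, that of RBFOX1 from -0.049 to 0.089, that of RBFOX2 (-0.16 with all libraries) from -0.40 without WT replicate 3 (adjusted p = 0.0311, edgeR) to 0.12 without WT replicate 1, and that of ESRP2 from -0.011 to 0.0088, and ESRP2 was at 0.00024 with DESeq2's size factors and 0.0029 with its Wald test. The cause was not tested. Replicate numbers did not pair the libraries (correlation of deviations 0.028, -0.024 and 0.041), and with the replicate number as a block 0 of the 56 genes passed 0.001, while 2 were lower and 5 higher at 0.05. Depth limits CELF3, MBNL2, RBFOX1 and SRPK3, with at most 40 counts per library.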
